A study of Mus musculus with 42 samples.

Results

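The comparison was between quadriceps muscle of adult and of young wild-type (wt) mice, expressed as adult minus young. Its members were all quadriceps arrays of wt mice, 6 from adults of 11 to 12 months and 4 from young mice of 2 to 3 months, which made 10 of the 42 arrays in the series. The mice were males, and the strain given for all of them was 129 SvEvBrd x C57BL/6 heterozygotes. Each array held total RNA from 1 muscle of 1 mouse, hybridised to a 1-colour Affymetrix mouse array, and no treatment was named. The series also held soleus muscle of most of the same mice and both muscles of C3KO mice, which lack calpain 3, the muscle protease encoded by Capn3. Its design set 11 wt against 11 C3KO mice in 2 muscles at both ages. Both arrays of wt mouse M2-1 were left out, because the titles and the codes in their descriptions named opposite muscles. All 4 young wt mice carried the prefix F4 and the adults the prefixes M2, W2 and X2, so that age cannot be told apart from any other property of the F4 mice.

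Between 2 and 12 months a mouse passes from late growth to maturity, and muscle fibres stop enlarging. Growing muscle deposits the collagens of the endomysium and basement membrane that wrap each fibre, and insulin-like growth factor 1 is the main local growth signal. Quadriceps is a muscle of mostly fast fibres, which contract by calcium released from the sarcoplasmic reticulum and rely on molecular chaperones to keep contractile proteins folded.

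The labelled tissue was checked against its markers. The mean of 12 muscle identity genes was 13.48 to 13.54 in young and 13.58 to 13.69 in adult muscle, without overlap. These are values on the deposited log2 scale, where a difference of 1 is a 2-fold change. Capn3 checked the genotype labels: it lay between 9.89 and 10.3 in the wt quadriceps arrays and between 4.02 and 4.65 in the 11 C3KO quadriceps arrays. Within wt it did not pass the test for age (change −0.06, adjusted p = 0.830). Of 15 liver markers on the array, 10 did not exceed the median of any of the 10 arrays. Array medians ran from 4.35 to 4.44, and the lowest correlation of any array with another of its group was 0.981.

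Several measures that describe the samples moved with age and stand beside the results below. The 3' minus 5' difference of the actin control probes, a measure of RNA integrity, was 0.34, 0.11, 0.46 and 0.55 in young mice F4-1 to F4-4 and 0.09 to 0.23 in the adults. The mean of 8 adipocyte markers was 7.98 to 9.13 in young and 8.81 to 9.73 in adult muscle. The mean of 16 slow fibre genes was 8.01 to 9.06 in young and 6.43 to 9.06 in adult muscle, so the adults were spread widely. With the actin difference as a covariate 243 genes were called in place of 642, and with the adipocyte mean 203. Their part in each gene's change was not tested beyond these fits. In whole muscle, fewer cells of a type and less RNA per cell cannot be told apart.

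Of 11908 genes tested, 642 (5.39%) changed between young and adult quadriceps at an adjusted p under 0.05. Of these 349 rose (2.93%) and 293 fell (2.46%), and 71 changed by more than 2-fold, 38 upwards and 33 downwards. Adult and young arrays did not overlap for 696 genes (5.84%), of which 442 were among the called genes. The median change of all genes was 0.00. The largest falls among called genes were in the inducible chaperones Hspa1b (−2.78) and Hspa1a (−2.33), the nuclear receptor Nr4a3 (−2.20) and the cardiac actin Actc1 (−1.96), which skeletal muscle makes mainly before maturity. The largest rises were in Hddc3 (2.69), an enzyme that hydrolyses guanosine phosphates, the adipocyte hormone Lep (2.54), the antibody joining chain Jchain (2.25) and the lymphatic growth factor Vegfc (2.08). Leaving out young mouse F4-4 lowered the count to 291, and leaving out F4-1 lowered it to 335. Without F4-1, 41.8% of the called genes were higher in adults, against 54.4% with all arrays.

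**Figure D1:**
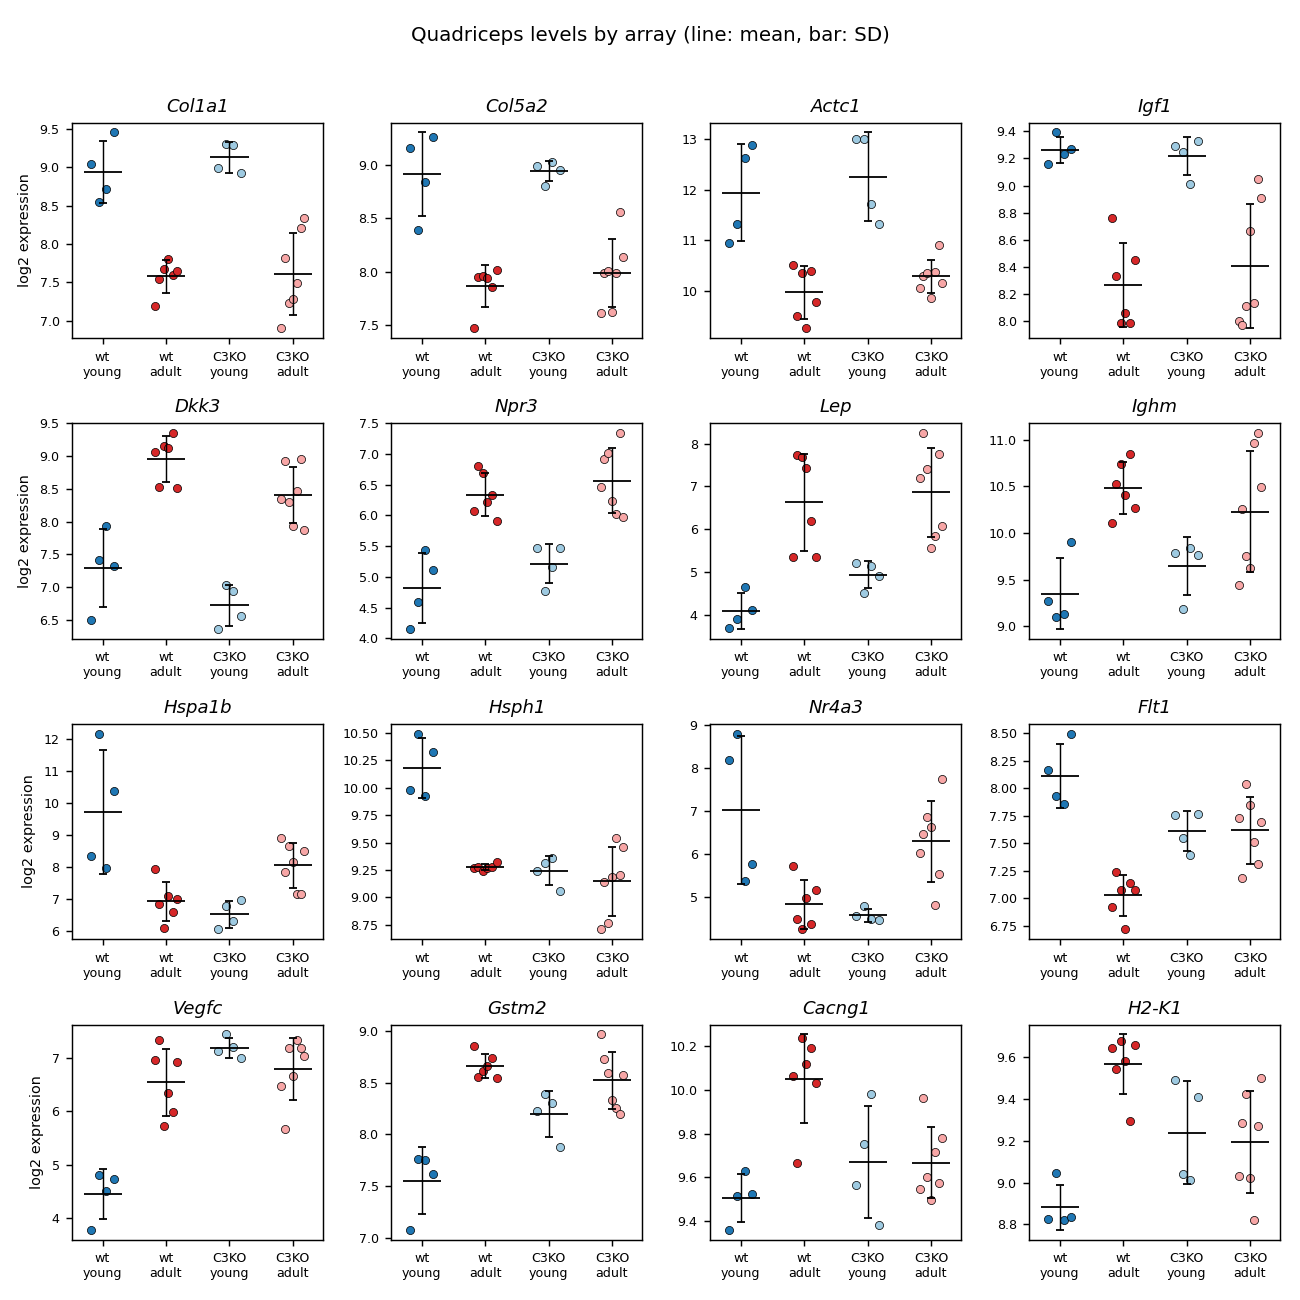
Deposited log2 expression of 16 genes in every quadriceps array (y axis), by genotype and age (x axis). Points are arrays, lines are group means and bars are SD. Col1a1 lies between 8.55 and 9.45 in the 4 wt young arrays and between 7.19 and 7.80 in the 6 wt adult arrays, with similar positions in C3KO, whereas Vegfc is low in wt young arrays and not in C3KO young arrays.

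Collagen genes were lower in adult muscle. Of 17 collagens tested, 9 fell and all 17 had negative changes, with a median of −0.62. Col1a1, a chain of the main fibrillar collagen, was 9.04, 8.55, 8.71 and 9.45 in the 4 young mice, and its lowest, median and highest values in the 6 adults were 7.19, 7.62 and 7.80. Every adult lay below every young mouse by at least 0.74. The fall was 1.36 on the log2 scale (SE 0.22, adjusted p = 0.00111), which is 2.57-fold. Its partner chain Col1a2 was 10.9, 10.5, 10.6 and 11.2 in young muscle and 9.06, 9.76 and 9.80 (lowest, median, highest) in adult muscle, a change of −1.17 (SE 0.19, adjusted p = 0.00109). The groups again did not overlap. Col3a1, the chain of the thinner fibrils that accompany type I collagen, was 11.4, 10.8, 11.4 and 11.8 in young and ran from 9.83 to 10.4 in adult muscle (change −1.15, SE 0.21, adjusted p = 0.00272).

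The basement membrane chain Col4a1 was 10.5, 10.2, 10.1 and 10.6 in the young mice. In adults it ran from 9.11 through a median of 9.44 to 9.90, again without overlap, and fell by 0.90 (SE 0.14, adjusted p = 0.000662). The fibril-regulating chain Col5a2 fell by 1.05 (SE 0.17, adjusted p = 0.000827), and adult mouse M2-2 held its lowest value, 7.47. Col5a1 and the microfibrillar chains Col6a1, Col6a2 and Col6a3 also fell, by 0.62 to 0.81. Col12a1, Col16a1 and Col18a1 had changes between −0.13 and −0.08 and did not pass. The number of collagens that fell was 6 without F4-4 and 11 without F4-2, 5 with the actin difference as a covariate and 7 with the adipocyte mean.

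**Figure D2:**
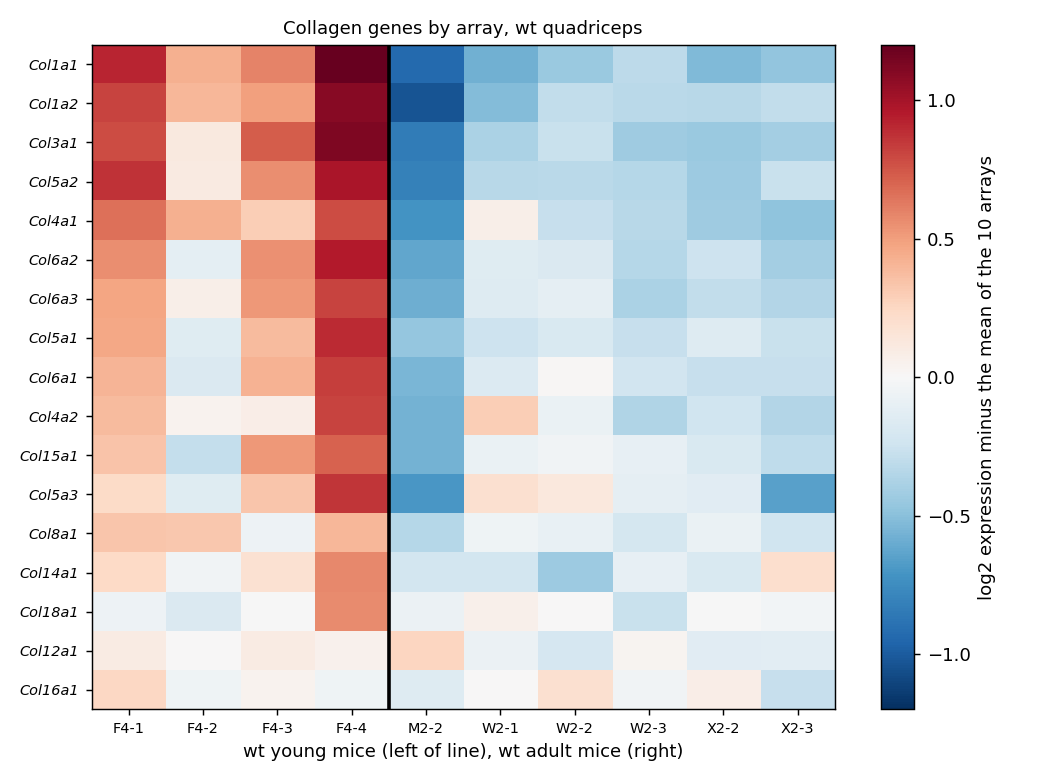
Log2 expression of the 17 collagen genes (rows) in the 10 wt quadriceps arrays (columns, young left of the line), as the difference from each gene's mean over these arrays. Young mouse F4-4 is the highest and adult mouse M2-2 the lowest for most fibrillar chains, and the lowest 3 rows, Col18a1, Col12a1 and Col16a1, show little difference between the ages.

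Genes that process collagen fell in part. Of 14 tested, 4 fell and the median was −0.28. Serpinh1, the collagen chaperone of the endoplasmic reticulum, was 8.78, 8.97, 8.48 and 8.72 in young muscle and 7.80, 7.86 and 8.21 (lowest, median, highest) in adult muscle. The groups did not overlap, and the change was −0.79 (SE 0.15, adjusted p = 0.00352). The lysyl hydroxylase Plod2 (−0.88), the crosslinking oxidase Lox (−0.72) and the procollagen protease enhancer Pcolce (−0.66) fell with adjusted p between 0.0224 and 0.0350. Each of these 3 calls was lost when certain single arrays were dropped, with adjusted p up to 0.0802 for Plod2, 0.123 for Lox and 0.158 for Pcolce. The list had 1 fall without F4-1 or F4-4 and 2 without M2-2, W2-3 or F4-2. It had 2 falls with the actin difference as a covariate and 1 with the adipocyte mean. Plod2 lay close to the array median in adults and at or under it in 1 of them.

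Among 24 other matrix proteins the median change was −0.33, and 22 of 24 had negative changes, but 2 passed. Postn, periostin, a matricellular protein of growing and healing tissue, was 7.33, 7.35, 7.18 and 7.02 in young and 5.54, 6.34 and 6.63 (lowest, median, highest) in adult muscle. It fell by 0.96 (SE 0.16, adjusted p = 0.00159) with no overlap. The small proteoglycan Bgn fell by 0.85 (SE 0.15, adjusted p = 0.00282). Fmod (−0.83, adjusted p = 0.0784) and Thbs4 (−0.63, adjusted p = 0.0649) did not pass. Without F4-2, or without X2-3, 4 members fell.

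Markers of tendon were lower beside these genes. All 7 tested had negative changes with a median of −0.73, and Tnmd, a defining tendon gene, fell by 0.87 (adjusted p = 0.0316). Its call was lost without any of F4-1, F4-4, M2-2, W2-2 or W2-3, with adjusted p up to 0.116, and it was lost under both covariates (0.117 with the actin difference, 0.209 with the adipocyte mean), while 5 members fell without X2-3 and 3 without F4-3. The mean of the tendon list was 7.39 to 8.0 in young and 6.59 to 7.64 in adult muscle. The transcription factor Mkx of that list did not exceed the median of any array. Fibroblast markers passed in none of 9 by limma, with 1 at an unadjusted p under 0.05. All 9 had negative changes, with a median of −0.12, and the mean of the list was 8.20 to 8.69 in young and 8.17 to 8.46 in adult muscle. The part of tendon tissue or of fibroblast number in the collagen changes was not tested.

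Single growth and developmental genes of muscle changed. Actc1 was 10.9, 11.3, 12.6 and 12.9 in the young mice and 9.28, 10.1 and 10.5 (lowest, median, highest) in adults. Young mice differed among themselves by nearly as much as the gap between the means, yet no adult reached a young value. The change was −1.96 (SE 0.36, adjusted p = 0.00316). The embryonic and atrial light chain Myl4 went the other way, from 5.66, 6.01, 5.68 and 5.70 in young to between 6.46 and 6.86 in adult muscle (0.82, SE 0.15, adjusted p = 0.00314). These were the called genes among 13 developmental muscle genes, whose median change was −0.03. Without F4-2, 2 of the 13 rose and 2 fell, and without F4-1 or X2-2 the number that fell was also 2. None rose with the adipocyte mean as a covariate, and 2 fell with the actin difference.

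Igf1, the local growth factor, was 9.16, 9.39, 9.23 and 9.27 in the young mice. In the adults it was 7.99, 8.20 and 8.76 (lowest, median, highest). The young values were tight, the adult values spread, and the groups stayed apart, with a fall of 1.00 (SE 0.19, adjusted p = 0.00401). The growth hormone receptor Ghr rose by 0.35 (SE 0.10, adjusted p = 0.0396), with overlap between the groups and a call that was lost without several single arrays. Of 29 genes of insulin and insulin-like growth factor signalling, 5 fell and 1 rose. The other falls were in the cytokine feedback inhibitor Socs3 (−1.46, SE 0.26, adjusted p = 0.00272), the insulin receptor substrate Irs2 (−0.92), the transcription factor Foxo1 (−0.67) and Ddit4 (−1.74), an inhibitor of mTOR signalling. Ddit4 was 9.44, 9.66, 6.72 and 8.05 in young muscle and 5.98, 6.55 and 8.03 (lowest, median, highest) in adults. It overlapped between the groups, and its adjusted p of 0.0460 rose above the threshold in 8 of the 10 fits that dropped a single array. With the actin difference, or the adipocyte mean, as a covariate the list had 2 falls and no rise. Without F4-1 it had 2 falls and without F4-4 it had 3, and Irs2 lay at or under the array median in 3 adults.

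Among 19 myogenic regulators and satellite cell genes, 2 rose and 1 fell. Sdc4, a heparan sulphate proteoglycan of satellite cells, was 6.67, 5.50, 6.00 and 6.12 in young and 6.77, 7.57 and 8.47 (lowest, median, highest) in adult muscle, a rise of 1.50 (SE 0.27, adjusted p = 0.00276). A further probe set for Sdc4 gave −0.69, so the probe sets disagreed. The muscle transcription factor Mef2c rose by 0.33, and its 4 other probe sets gave 0.00, 0.05, 0.12 and 0.74, so most of them showed little change. Notch1, a receptor that holds satellite cells quiescent, fell by 0.54 (adjusted p = 0.0271), with overlap between the groups. The calls of Mef2c and Notch1 were lost without several arrays, with adjusted p up to 0.114 for each. Without F4-1, 3 members fell. The list had 1 rise and no fall with the adipocyte mean as a covariate, and 1 rise and 2 falls with the actin difference. Myod1 (−0.71, adjusted p = 0.0697) and Myog (−0.65, adjusted p = 0.0706), which drive differentiation, did not pass.

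Heat shock proteins fell in part. Of 28 tested, 11 fell, with a median of −0.31 over all 28, and the remaining 17 did not pass. Heat shock genes are switched on by the factor HSF1, which is active when proteins unfold. It binds inverted repeats of GAA, such as the element GAANNTTC. Promoters of 3 members that fell are printed here because each holds that element, in capitals, within the 250 bases before the start site. They come from RefSeq, build GRCm38.p6, and run 5′ to 3′ on the gene's strand. Hspb1 lies at chr5:135887669-135887918 on the plus strand, Dnaja1 at chr4:40722218-40722467 on the plus strand, and Hspa1b at chr17:34959239-34959488 on the minus strand.
Hspb1: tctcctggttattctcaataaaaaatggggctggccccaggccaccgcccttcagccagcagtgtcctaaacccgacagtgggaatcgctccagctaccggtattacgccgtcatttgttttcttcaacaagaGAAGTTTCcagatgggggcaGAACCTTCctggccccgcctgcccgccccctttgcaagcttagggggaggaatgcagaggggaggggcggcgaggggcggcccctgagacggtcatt
Dnaja1: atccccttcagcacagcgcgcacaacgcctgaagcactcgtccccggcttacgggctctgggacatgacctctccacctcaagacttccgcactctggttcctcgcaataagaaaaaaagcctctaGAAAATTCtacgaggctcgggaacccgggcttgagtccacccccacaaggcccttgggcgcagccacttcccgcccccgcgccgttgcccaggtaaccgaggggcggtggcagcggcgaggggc
Hspa1b: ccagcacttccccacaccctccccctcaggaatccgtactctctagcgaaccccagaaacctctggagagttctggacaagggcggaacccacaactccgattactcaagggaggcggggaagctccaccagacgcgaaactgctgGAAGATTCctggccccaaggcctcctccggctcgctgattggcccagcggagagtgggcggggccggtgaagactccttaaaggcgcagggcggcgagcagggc
The Hspb1 promoter holds 2 such elements, 117 and 97 bases before the start, and those of Dnaja1 and Hspa1b hold 1 each, at 124 and 104 bases. Dnaja1 has further start sites downstream of the one shown, and their windows held no such element. The search covered both strands, on which GAANNTTC reads the same. It found the element in 6.7% of 32841 mouse promoters of that length and in 7.73% of 27018 genes. Among members that fell, 6 of the 10 genes with a promoter in the table held it (Dnaja1, Hspa1a, Hspa1b, Hspb1, Hspb6 and Hspe1). Among tested members that did not pass, 3 of 14 did (Fkbp4, Hspb3 and Hspd1). These hits were not all separate. The element of Hspe1 and that of Hspd1 are the same site in overlapping windows, so it counted in both sets. The windows of Hspa1a and Hspa1b are nearly identical. A gene counted if any of its start sites held the element, and other start sites of Dnaja1, Hspb6 and Hspd1 did not. A match describes letters in this window and not a bound site.

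Hspa1b, an inducible form of HSP70, was 8.34, 12.2, 7.97 and 10.4 in the 4 young mice and 6.11, 6.93 and 7.93 (lowest, median, highest) in the adults. Mice F4-2 and F4-4 stood far above the others, while F4-3 lay just above the highest adult. The change was −2.78 (SE 0.56, adjusted p = 0.00573). Hspa1a, its near-identical neighbour on chromosome 17, changed by −2.33 (SE 0.55, adjusted p = 0.0163). Mice F4-2 and F4-4 were again the highest, and young F4-3, at 6.75, lay below adult M2-2, at 7.00, so that the groups overlapped. Signal of these copies may cross between their probe sets, so they are uncertain as separate results. The adjusted p of Hspa1a was 0.0605 without F4-4 and 0.0757 with the adipocyte mean as a covariate.

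The cochaperone Dnajb1, which delivers clients to HSP70, was 7.80, 10.3, 8.01 and 8.69 in young muscle and 6.53, 7.20 and 7.64 (lowest, median, highest) in adults (−1.53, SE 0.33, adjusted p = 0.00840). Here too F4-2 was highest, and the groups did not overlap. Hsph1, which recharges HSP70, was 9.97, 10.5, 9.92 and 10.3 in young mice, and the 6 adults lay within 9.24 to 9.32. This narrow adult range lay below all young mice (−0.90, SE 0.14, adjusted p = 0.000715). A further Hsph1 probe set gave −0.53, and there F4-3, at 7.70, lay inside the adult range of 7.46 to 7.95. The small heat shock proteins Hspb1 (−0.66) and Hspb6 (−0.58), the HSP90 form Hsp90aa1 (−0.68) and Hspa4l (−1.03), Dnaja1 (−0.73), Hspe1 (−0.41) and Hspa1l (−0.47) also fell. The constitutive Hspa8 (−0.11) and the mitochondrial Hspd1 (0.02) did not pass. Without F4-2, or without F4-4, 7 members fell. With the adipocyte mean as a covariate 4 fell, and with the actin difference 8.

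**Figure D3:**
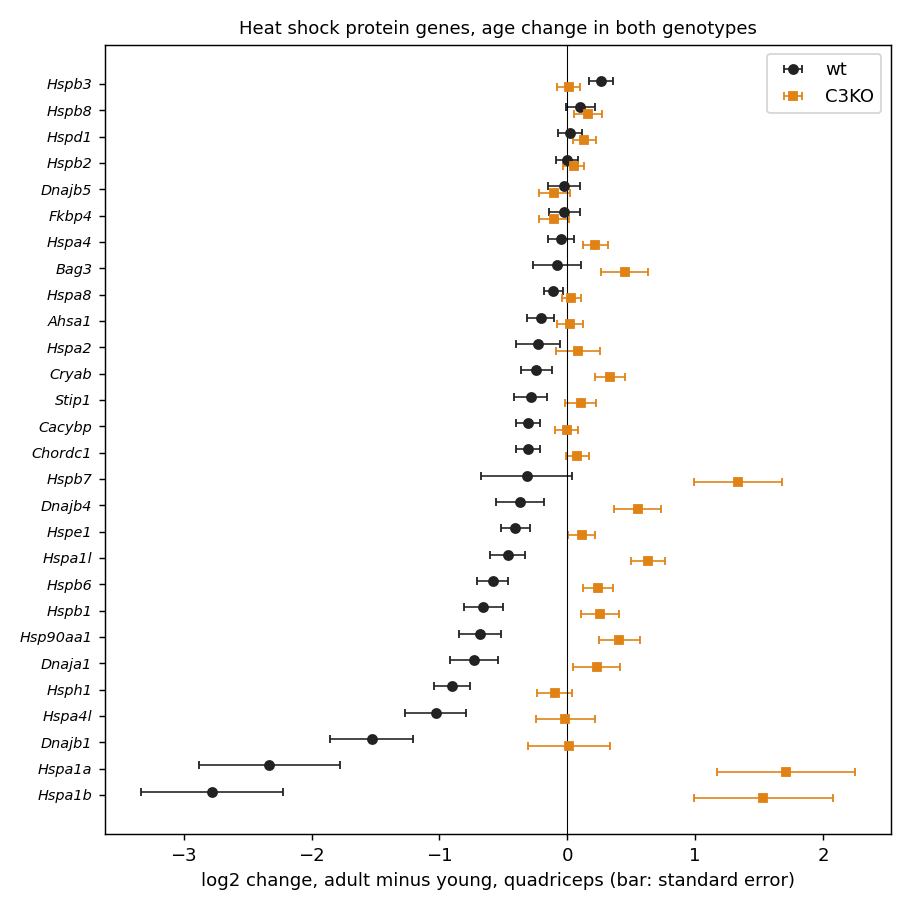
Log2 change with age, adult minus young (x axis), of the 28 heat shock genes in wt (circles) and C3KO (squares) quadriceps, with bars for the standard error of each change. Hspa1b and Hspa1a lie at −2.78 and −2.33 in wt and at 1.53 and 1.71 in C3KO, and most of the genes near 0 in wt are near 0 in C3KO.

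Immediate early genes, which respond within minutes to hours to activity or stress, were lower in part. Of 22 tested, 4 fell, and the median was −0.37. The matrix-inducing factor Ccn2 was 8.73, 8.32, 7.39 and 8.01 in young and 6.75, 6.92 and 7.23 (lowest, median, highest) in adult muscle (−1.15, SE 0.21, adjusted p = 0.00299). The groups did not overlap. The activity-induced receptor Nr4a1 fell by 0.98 (SE 0.20, adjusted p = 0.00633), and the AP-1 subunit Fosl2 by 0.98 (SE 0.18, adjusted p = 0.00352), although a further Fosl2 probe set gave 0.03. The number that fell ran from 3 to 7 with 1 array left out, and was 7 without F4-3. It was 3 with the adipocyte mean as a covariate and 4 with the actin difference.

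Nr4a3 was 8.18, 8.80, 5.37 and 5.76 in the young mice and 4.24, 4.73 and 5.73 (lowest, median, highest) in adults. F4-1 and F4-2 were high, and F4-3 lay inside the adult range. The change was −2.20 (SE 0.55, adjusted p = 0.0208). It was not called without F4-1 (adjusted p = 0.0935). Without F4-2 the brightest probe set was another, which gave −0.08 and no call. The metallothionein Mt1, a metal- and stress-induced gene, was 10.2, 9.98, 8.16 and 8.29 in young and 7.40 to 7.91 in adult muscle (−1.54, SE 0.32, adjusted p = 0.00686). Mt2, at 10.70, 10.01, 7.11 and 6.89 in young muscle, overlapped with the adults and did not pass (adjusted p = 0.0621). F4-1 and F4-2 were thus the high young mice for Nr4a3, Mt1 and Mt2, and F4-2 and F4-4 for Hspa1a and Hspa1b.

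Polyamine genes changed in both directions. Polyamines are small cations made from ornithine by Odc1 and degraded through Sat1 and Smox. Smox, spermine oxidase, was 11.8, 11.6, 11.6 and 12.0 in young and 9.77, 10.2 and 10.7 (lowest, median, highest) in adult muscle. The highest adult lay 0.87 below the lowest young mouse, and the change was −1.50 (SE 0.29, adjusted p = 0.00401). Odc1 fell by 0.78 (SE 0.18, adjusted p = 0.0119) and Sat1 by 0.53 (SE 0.11, adjusted p = 0.00638). The antizyme Oaz2 rose by 0.43 (adjusted p = 0.0443), a call lost in 9 of the 10 fits that dropped a single array. These were the 4 called among 9 tested. With the actin difference, or the adipocyte mean, as a covariate 1 of them fell and none rose, and without F4-1 the adjusted p of Odc1 was 0.0591. Aldh18a1, which makes a precursor of proline and ornithine, was 5.52, 5.30, 5.25 and 5.67 in young mice and 3.93 to 4.27 in adults, where it lay at or under the array median in all 6. The change was −1.29 (SE 0.18, adjusted p = 0.000300).

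Energy metabolism showed single changes. Fatty acid use and glycolysis each had 1 rise and 1 fall, near the shares of all genes (2.93% and 2.46%). None of 29 respiratory chain subunits passed by limma, 2 were lower at an unadjusted p under 0.05, and changes ran from −0.25 to 0.11. Of 28 genes of fatty acid use, Ppara, the nuclear receptor for fatty acid oxidation, fell from 8.0, 7.25, 7.29 and 7.87 in young mice to between 5.88 and 6.88 in adults (−1.29, SE 0.25, adjusted p = 0.00419, and 0.0518 with the actin difference as a covariate). Without M2-2, 3 members of that list fell, and without F4-3, 2. Acsl6 rose by 0.35 (adjusted p = 0.0375), and 7 of the 10 fits that dropped a single array did not call it. Of 25 genes of glycolysis and glycogen, Pgk1 fell by 0.35 (SE 0.07, adjusted p = 0.00877). Pfkfb3, which makes the activator of phosphofructokinase, was 7.73, 8.56, 8.59 and 8.15 in young and 9.06, 9.68 and 10.2 (lowest, median, highest) in adult muscle. It rose by 1.36 (SE 0.34, adjusted p = 0.0224) with no overlap, and had adjusted p of 0.0899 without F4-1 and 0.0697 without F4-4. None of these 25 was called with the adipocyte mean as a covariate, nor did any gene of fatty acid use rise.

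Clock genes mostly had positive changes, 13 of 19 with a median of 0.21. The repressor Bhlhe40 rose by 0.74 (SE 0.16, adjusted p = 0.00984), and the output factor Tef rose by 0.46 (SE 0.11, adjusted p = 0.0162). Ciart, a repressor of the clock activators, was 6.04, 5.31, 4.72 and 4.65 in young and 5.52, 6.41 and 6.54 (lowest, median, highest) in adult muscle. F4-1 lay within the adult range, and the change was 1.05 (SE 0.24, adjusted p = 0.0136). Nfil3, which opposes Tef at the same sites, was 8.11, 8.47, 7.44 and 8.06 in young and 6.23 to 7.16 in adult muscle and fell by 1.23 (SE 0.29, adjusted p = 0.0161). Without F4-3, 1 member rose. Without F4-4, 1 rose and none fell, and the adjusted p of Nfil3 was 0.0503. The adipocyte covariate left 2 rises and no fall. The core activator Arntl (−0.29) and Per2 (0.01) did not pass. The clock activators bind the E-box CACGTG. The Ciart promoter, at chr3:95882229-95882478 on the minus strand of GRCm38.p6 (RefSeq), is shown because it held 3 of them, in capitals, at 116, 58 and 44 bases before the start.
Ciart: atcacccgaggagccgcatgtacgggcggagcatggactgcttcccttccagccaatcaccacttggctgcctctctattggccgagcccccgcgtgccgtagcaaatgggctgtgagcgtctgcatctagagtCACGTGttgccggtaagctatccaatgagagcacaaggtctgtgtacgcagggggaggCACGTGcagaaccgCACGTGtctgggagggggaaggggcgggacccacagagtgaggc
CACGTG, which reads the same on both strands, stood in 6.02% of the 32841 promoters and in 6.86% of the 27018 genes. It stood in 5 of the 16 tested clock genes with a promoter in the table, namely Bhlhe41, Ciart, Cry1, Per1 and Tef.

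Of 22 genes of excitation-contraction coupling, 4 rose and 18 did not pass. The median was 0.12, and 16 of the 22 had positive changes. The 4 were subunits of the voltage sensor of the T-tubule and its partner, the calcium release channel. Cacng1, the gamma subunit, was 9.36, 9.52, 9.63 and 9.52 in young and 9.67, 10.1 and 10.2 (lowest, median, highest) in adult muscle. Mouse W2-1 was the lowest adult and lay just above the highest young mouse (0.55, SE 0.12, adjusted p = 0.00984). Cacna1s, the pore, rose by 0.63 (SE 0.15, adjusted p = 0.0185), and its adjusted p without F4-1 was 0.0643. Cacna2d1 rose by 0.54 and Ryr1, the release channel, by 0.61. A single further Ryr1 probe set gave −0.26, and only 1 of 4 further Cacna2d1 probe sets shared its direction, so both depend on the probe set. Ryr1 was not called without F4-1 (adjusted p = 0.0887) or F4-3 (0.0549). With the actin difference as a covariate 1 of these 22 genes rose, and with the adipocyte mean none did.

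Of 24 genes of sarcomere and Z-disc structure, 3 rose and 21 did not pass. With the actin difference, or the adipocyte mean, as a covariate none of the 24 was called. The M-band protein Myom1 was 11.7, 11.9, 11.6 and 11.8 in young and 12.0 to 12.3 in adult muscle (0.44, SE 0.10, adjusted p = 0.0107). Cmya5 (0.35) and Myoz3 (0.41) rose by less relative to their errors, with adjusted p of 0.0228 and 0.0454, and a further Myoz3 probe set gave −0.17. Without F4-1 or X2-2 the adjusted p of Cmya5 was 0.0887 or 0.0544, and 7 of the 10 fits that dropped a single array did not call Myoz3. Among 17 fast fibre genes 1 rose, beside 2.93% of all genes. It was Mylk2, the kinase of the fast light chain (0.55, adjusted p = 0.0387), which was not called in 7 of these fits. Under both covariates no fast fibre gene was called, and the median of the list was 0.06.

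Slow fibre genes had the lowest median of the lists described, −0.86, and none of 16 passed by limma, with 1 at an unadjusted p under 0.05. Myl2, the slow regulatory light chain, was 10.7, 9.85, 9.86 and 10.5 in young muscle. In adults it ran from 5.24 through 8.49 to 10.4 (−2.09, SE 0.94, adjusted p = 0.211). Slow myosin Myh7 ran from 3.80 through 6.34 to 8.52 in adults and from 7.01 to 9.18 in young mice (−1.84, SE 0.95, adjusted p = 0.284). The mean of the list was 9.06, 8.77 and 8.70 in adults W2-1, W2-3 and X2-3, within the young range, and 6.97, 6.43 and 6.51 in M2-2, W2-2 and X2-2. The adults therefore fell into a high and a low set for these genes. With this mean as a covariate 438 genes were called.

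**Figure D4:**
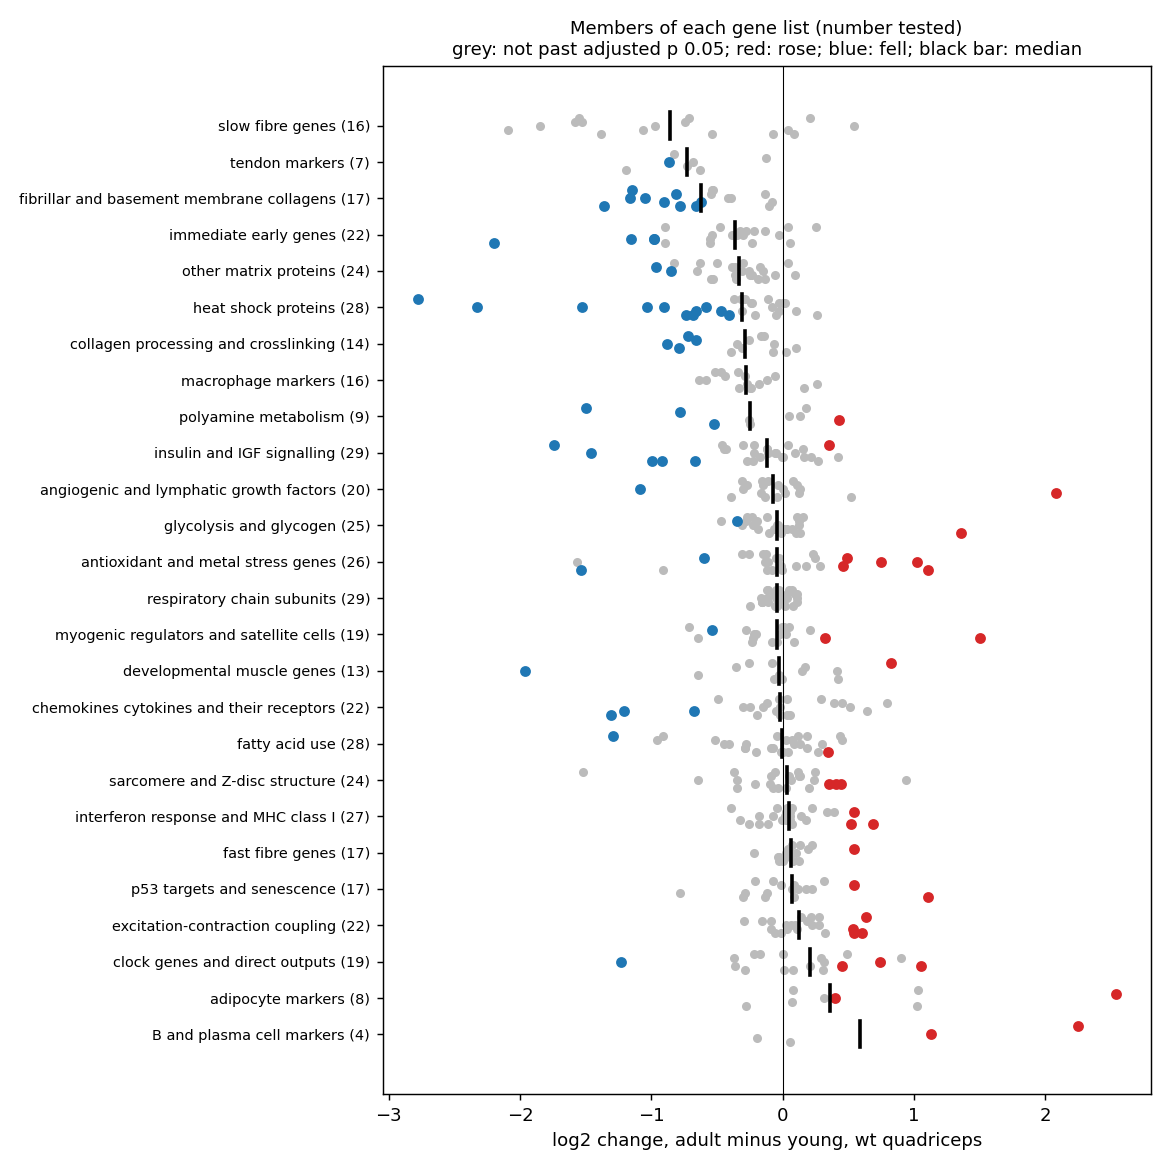
Log2 change, adult minus young, in wt quadriceps (x axis) of every tested member of 26 gene lists (y axis, number tested in parentheses). Red points rose and blue points fell at an adjusted p under 0.05, grey points did not pass, and black bars are medians, which run from −0.86 for slow fibre genes to 0.59 for B and plasma cell markers.

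Immune genes moved in both directions. Of 27 genes of the interferon response and MHC class I, 3 rose. H2-K1, a heavy chain that presents peptides, was 8.83, 9.04, 8.82 and 8.84 in young and 9.30, 9.62 and 9.68 (lowest, median, highest) in adult muscle (0.69, SE 0.13, adjusted p = 0.00291). The groups did not overlap, and all 3 further probe sets shared the direction. Its partner B2m rose by 0.52 (SE 0.12, adjusted p = 0.0108), and the interferon-induced Ifit3 by 0.54 (SE 0.13, adjusted p = 0.0180). The adjusted p of Ifit3 was 0.0503 without F4-1 and 0.0810 without F4-4. Ifit1 was lower in adults without passing (−0.40, adjusted p = 0.0886). With the adipocyte mean as a covariate none of these 27 genes was called, and with the actin difference 1 was.

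Some antibody genes rose. Ighm, the heavy chain of IgM, was 9.27, 9.10, 9.13 and 9.90 in young and 10.1, 10.5 and 10.8 (lowest, median, highest) in adult muscle. No adult lay below a young mouse, and the rise was 1.13 (SE 0.27, adjusted p = 0.0152). The 5 further probe sets gave 0.03, 0.09, 0.24, 1.78 and 1.97. Jchain, which joins IgM and IgA into polymers, was 3.38, 3.15, 2.58 and 2.87 in young mice, all at or under the array median. Adults ran from 3.24 through 4.93 to 7.29, 2 of them at or under the median, and the change was 2.25 (SE 0.56, adjusted p = 0.0199). Its adjusted p was 0.0540 without F4-3 and 0.0617 without F4-4. The light chain segment Igkv8-30 rose by 1.44 (adjusted p = 0.0441) from values at or under the median in all young mice, with its call lost without any 1 of the 4 young mice. Of 12 B and plasma cell markers 7 were found on the array by symbol and 4 were bright enough to test, and 2 of these rose. The actin covariate left 1 rise and the adipocyte covariate none. The other tested members, Mzb1 among them (−0.19), did not pass.

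Chemokines fell in part, 3 of 22 chemokine, cytokine and receptor genes. Ccl9, a chemokine of myeloid cells, was 9.17, 8.63, 7.61 and 7.89 in young and 6.60, 6.93 and 7.94 (lowest, median, highest) in adult muscle (−1.31, SE 0.29, adjusted p = 0.00984). Adult M2-2 was the highest adult and lay among the young values. Ccl6 fell by 1.20 (adjusted p = 0.0184), with the same mouse highest, and the interleukin 6 receptor Il6ra by 0.68 (adjusted p = 0.0158). Without F4-1 the adjusted p was 0.0514 for Ccl9, 0.0899 for Ccl6 and 0.0651 for Il6ra, and none of the 22 was called. With the adipocyte mean as a covariate none was called either. None of 16 macrophage markers passed by limma, although 14 had negative changes and 6 were lower at an unadjusted p under 0.05. Without M2-2, 4 of them fell.

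Of 8 adipocyte markers tested, 2 rose and 6 did not pass, with a median of 0.36. Lep, leptin, was 3.68, 3.90, 4.65 and 4.10 in young mice, at or under the array median in 3 of them. In adults it was 5.34, 6.81 and 7.73 (lowest, median, highest). No adult reached down to the young range (2.54, SE 0.51, adjusted p = 0.00573). Car3, a carbonic anhydrase abundant in fat and slow fibres, rose by 0.40 (SE 0.08, adjusted p = 0.00626), and its most variable probe set gave 0.92 and no call (adjusted p = 0.183). Adipoq (1.03, adjusted p = 0.151) and Cidec (1.03, adjusted p = 0.164) overlapped widely and did not pass. With the mean of this list as a covariate Lep gave 1.22 (adjusted p = 0.0686), but Lep is itself one of the markers in that mean.

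Some detoxification genes rose, while their list as a whole did not. Of 26 antioxidant and metal stress genes, 5 rose and 2 fell, the median was −0.04 and 16 had negative changes. Gstm2, a glutathione transferase, was 7.07, 7.77, 7.75 and 7.62 in young and 8.55, 8.64 and 8.85 (lowest, median, highest) in adult muscle. The lowest adult lay 0.78 above the highest young mouse, and the rise was 1.11 (SE 0.15, adjusted p = 0.000200). Biliverdin reductase Blvrb was 6.05, 6.81, 6.73 and 6.94 in young and 7.20 to 8.06 in adult muscle (1.02, SE 0.15, adjusted p = 0.000551). Gpx3 (0.75), Gstm1 (0.49) and Nqo1 (0.46) rose, while Gclm, the modifier subunit of glutathione synthesis, fell by 0.59 (SE 0.12, adjusted p = 0.00626). Without F4-3, 5 members fell. The adipocyte covariate left 3 rises and no fall, and the actin covariate gave 4 falls.

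Of 20 angiogenic and lymphatic growth factors and receptors, 1 rose and 1 fell, shares near those of all genes. Flt1, a receptor of VEGF, was 8.17, 7.93, 7.86 and 8.50 in young and 6.72, 7.08 and 7.24 (lowest, median, highest) in adult muscle. The groups stood 0.62 apart, all 3 further probe sets shared the direction, and the fall was 1.08 (SE 0.15, adjusted p = 0.000325). Vegfc was 3.78, 4.81, 4.52 and 4.73 in young and 5.72, 6.63 and 7.34 in adult muscle (2.08, SE 0.30, adjusted p = 0.000413). Its 2 further probe sets gave 0.30 and −0.00, so the rise rests on 1 probe set. The other 18 tested genes did not pass. Endothelial markers passed in none of 12 by limma, with 2 lower at an unadjusted p under 0.05. Of the 12, 10 had negative changes, with a median of −0.18, and the mean of the list was 7.39 to 7.80 in young and 7.11 to 7.84 in adult muscle.

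Of 17 p53 targets and senescence genes 2 rose. Eda2r, a death-domain receptor induced by p53, was 5.75, 6.32, 5.61 and 5.26 in young and 6.19, 6.66 and 7.69 (lowest, median, highest) in adult muscle. F4-2 lay inside the adult range (1.11, SE 0.26, adjusted p = 0.0145). The cell cycle inhibitor Cdkn2c rose by 0.55 (SE 0.13, adjusted p = 0.0184). Both were not called without F4-4, with adjusted p of 0.0726 and 0.0921, and Cdkn2c was not called without F4-1 (0.0585). Neither was called with the actin difference as a covariate, and Cdkn2c was not called with the adipocyte mean (0.0726).

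Other large rises belonged to no list. Dkk3, a secreted protein of the dickkopf family, was 6.50, 7.41, 7.94 and 7.33 in young and 8.51, 9.10 and 9.35 (lowest, median, highest) in adult muscle (1.66, SE 0.25, adjusted p = 0.000471). Npr3, the clearance receptor for natriuretic peptides, was 4.15, 4.58, 5.44 and 5.11 in young and 5.90, 6.28 and 6.81 in adult muscle (1.51, SE 0.26, adjusted p = 0.00196). Mss51, a muscle mitochondrial protein, was 9.11, 8.95, 9.36 and 9.04 in young and 10.5, 10.7 and 11.0 in adult muscle (1.61, SE 0.23, adjusted p = 0.000337). In none of the 3 did the groups overlap. Rhpn2 (1.51), Unc13c (1.50) and Ptger3 (1.43) rose from levels at or under the array median in all 4 young mice. Ptger3 was also under it in adults M2-2, W2-3 and X2-3, Rhpn2 in W2-3 and Unc13c in W2-2. The call of Ptger3 was lost without F4-1 (1.21, adjusted p = 0.0808). Katnal2 (1.45), Wdfy1 (1.46) and Sncg (1.42) rose as well. Among the large falls, Prg4, lubricin, changed by −1.32 (adjusted p = 0.0137), Pon1 by −1.31 (adjusted p = 0.0283) and the mitochondrial carrier Slc25a25 by −1.42 (adjusted p = 0.0485). Pon1 lay at or under the array median in 4 adults, and a further Slc25a25 probe set gave 0.13. The Slc25a25 call was lost in 8 of the 10 fits that dropped a single array, with −0.91 and an adjusted p of 0.174 without F4-2. That of Pon1 was lost without F4-2, F4-3, M2-2 or W2-1 (adjusted p up to 0.107), and that of Prg4 without F4-1 (0.0698).

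The same age contrast in C3KO quadriceps, 7 adult against 4 young mice on arrays of their own, called 137 genes (1.15%). Descriptions of 4 of these 7 adults began with code 1-1 and those of all 4 young mice with 1-3. With the code as a covariate 18 genes were called in C3KO, with arrays of code 1-3 alone 13, and with the adipocyte mean 30. Of the 137 53 rose (0.445%) and 84 fell (0.705%). Genes called in both genotypes in the same direction numbered 49, which was 7.63% of the wt calls and 35.8% of the C3KO calls. With the code as a covariate 11 were shared, with code 1-3 alone 8 and with the adipocyte mean 13. Of the collagens 9 fell in each genotype, the medians were −0.62 in wt and −0.68 in C3KO, and no collagen had a called difference between the genotypes. With the code as a covariate, or with code 1-3 alone, 3 collagens fell in C3KO, and with the adipocyte mean 5 did. Col1a1 ran from 8.92 to 9.30 in young and from 6.90 to 8.34 in adult C3KO mice (−1.52, adjusted p = 0.000745), and the difference from wt was 0.15 (adjusted p = 0.910). Actc1 changed by −1.96 in both (difference 0.00, adjusted p = 0.999), Dkk3 by 1.66 and 1.68 (adjusted p = 0.993), and Igf1 by −1.0 and −0.81 (adjusted p = 0.858). A p that misses the threshold does not show that these changes are equal.

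The age change itself differed between wt and C3KO for 45 genes (0.378%), and for 44 of them the changes had opposite signs. Selection for a large difference favours opposite signs. Some C3KO changes lay near 0, such as 0.00 for Flt1 and 0.02 for Msrb1, where the sign says little. In 36 the wt change passed and the C3KO change did not, and in 3 both passed in opposite directions (Nudt18, Hspa1l and Pfkfb3). Among 28 heat shock genes 5 had a called difference, namely Hspa1a, Hspa1b, Hspa1l, Hspb6 and Hsp90aa1. Hspa1b ran from 6.06 to 6.96 in young and from 7.16 to 8.91 in adult C3KO mice, so that its change there was 1.53 (SE 0.54, adjusted p = 0.216) and the difference from wt −4.31 (adjusted p = 0.0160). The young wt mice were thus above the young C3KO mice. Nr4a3 behaved alike, with 4.45 to 4.78 in young and 4.82 to 7.74 in adult C3KO mice and a difference of −3.93 (adjusted p = 0.0271). Vegfc ran from 6.99 to 7.44 in young and from 5.66 to 7.33 in adult C3KO mice, so the low level was seen in young wt mice alone of the 4 groups (difference 2.48, adjusted p = 0.0106). Flt1 did not change in the mean in C3KO (0.00, SE 0.15), with values of 7.39 to 7.76 in young and 7.18 to 8.04 in adult mice (difference −1.09, adjusted p = 0.0271).

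Pfkfb3 fell in C3KO muscle, from between 9.19 and 10.1 in young to between 7.24 and 9.63 in adult mice. The change was −1.37 (SE 0.33, adjusted p = 0.0436), and the difference from its rise in wt was 2.73 (adjusted p = 0.0126). Adults Q2-1 to Q2-4, of code 1-1, were at 7.54, 8.01, 7.79 and 7.24. Adults U2-1, U2-2 and U2-3, of code 1-3, were at 8.91, 8.61 and 9.63. All young C3KO mice were of code 1-3, so in the code 1-1 adults age cannot be told apart from the code. Foxo1, Odc1 and Blvrb also had called differences, of −1.13, −1.15 and 1.01. Sdc4 was high in both C3KO groups, 8.46 to 9.33 in young and 8.36 to 8.96 in adult mice, and above every young wt mouse (difference 1.90, adjusted p = 0.0294). The number of called differences was sensitive to single wt mice, with 10 without X2-2, 15 without F4-4, 20 without F4-2, 21 without F4-1, 28 without W2-1 and 68 without F4-3. It was 18 with the code as a covariate, 13 with arrays of code 1-3 alone and 8 with the slow fibre mean. The young wt mice took part in every one of these differences, and their shared prefix cannot be told apart from wt age.

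**Figure D5:**
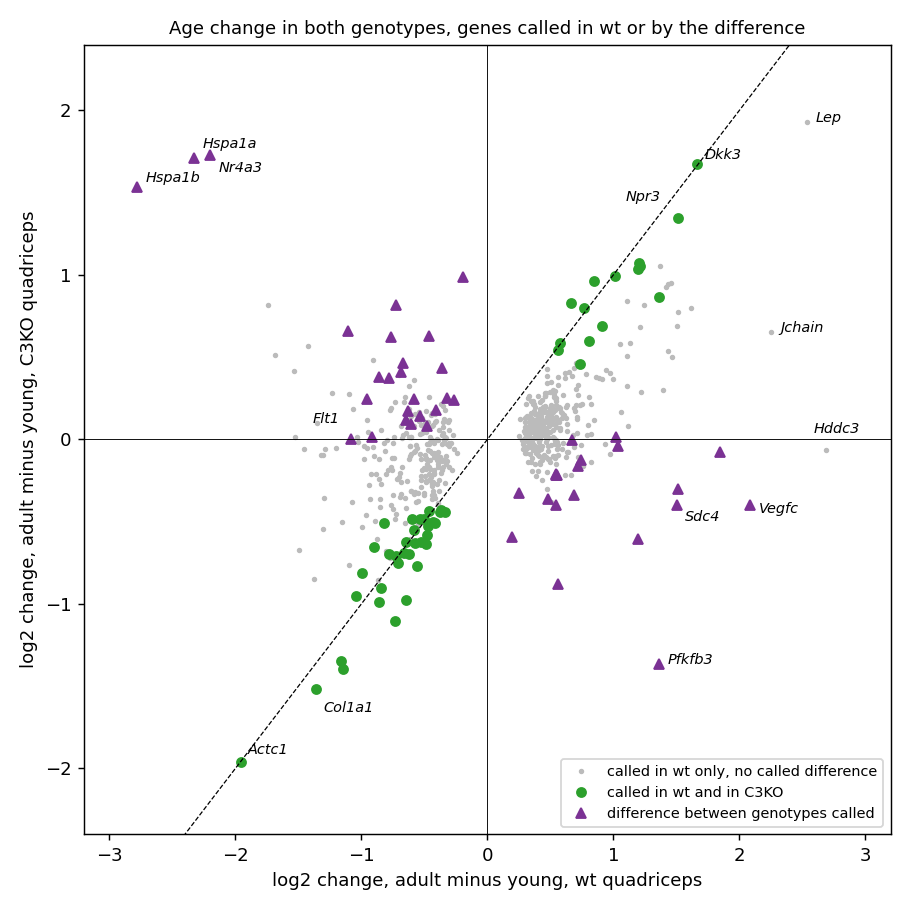
Log2 change with age in wt (x axis) and in C3KO (y axis) quadriceps for genes called in wt or for the difference between genotypes. Circles on or near the dashed line of equal change, such as Actc1 at −1.96 in both, were called in both genotypes, and triangles, such as Hspa1b at −2.78 and 1.53, had a called difference.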

How the data were processed

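Total RNA of quadriceps and soleus was labelled and hybridised to Affymetrix arrays, per the labels' protocols. The values used were the deposited log2 expression values of 45101 probe sets on 42 arrays. The submitters' processing notes name MAS5 and RMA without saying what each did, and the normalization is otherwise not given in the sources used here. Gene names came from the platform annotation. Of 45037 probe sets other than controls, 34945 had 1 symbol, 932 several and 9160 none, and 99.8% of the 34945 were matched to GRCm38.p6 genes.

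A probe set was kept where it exceeded its array's median on at least 4 of the 21 quadriceps arrays, and the brightest stood for its gene. limma 3.58.1 (R 4.3.3) fitted 4 groups of genotype and age, with the age change in wt, the age change in C3KO and their difference as contrasts. P-values were adjusted by Benjamini-Hochberg over all 11908 genes, with 0.05 as threshold, and "called" means past it. The steps were tested on simulated data. The comparison, the 44 gene lists and their members were chosen with earlier results of these data known.

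Genes named were the 15 largest rises and falls among called genes, leaving out unnamed clones, and up to 4 members with the smallest p of each of 26 lists described, plus Capn3. Others were named from those lists for their known role or from the called differences, after their values were seen. Groups follow the labels, with each mouse as 1 replicate, and array number limits the precision. The labels name separate mice but give no litter. Alternatives were other sets of arrays, filters, scalings and probe set rules, covariates, and leaving out each wt array.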

Additional observations from a re-analysis of the deposited data

Results flagged for a closer look

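In 16 of 242 groups tested (121 genes in the 4 young and the 6 adult wt arrays), 1 mouse stood further from the rest than Dixon's critical value allows. Chance gives about 1 in 20 groups. Mouse M2-2 accounted for 4 of them, with the lowest adult values of the collagens Col5a2 (7.47) and Col1a2 (9.06) and the highest adult values of the chemokines Ccl9 (7.94) and Ccl6 (7.77). This mouse was also the one wt quadriceps sample whose description began with code 1-1 in place of 1-3. Among the other adults, W2-1 was high for the small heat shock protein Hspb6 (12.9) and low for the calcium channel subunit Cacng1 (9.67). X2-2 was low for H2-K1 (9.30), W2-3 was low for Bhlhe40 (9.07), and W2-2 was high for Mylk2 (10.5).

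Among the young mice, F4-1 was low for Wdfy1 (4.82), Mylk2 (9.36) and the calcium store protein Casq1 (12.8). F4-2 was high for H2-K1 (9.04), Myl4 (6.01) and Bhlhe40 (9.07), and F4-4 was high for Actn2 (12.0).

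For 11 of the named genes the age change differed between wt and C3KO by the test of the difference itself. Given as wt change minus C3KO change, the differences were −4.31 for Hspa1b, −4.04 for Hspa1a, −3.93 for Nr4a3, −1.15 for Odc1, −1.13 for Foxo1, −1.09 for Flt1 and −0.82 for Hspb6. They were 2.73 for Pfkfb3, 2.48 for Vegfc, 1.90 for Sdc4 and 1.01 for Blvrb. Their adjusted p ran from 0.0106 to 0.0394.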

How the results depend on the processing

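Of 83 named genes that were called, 48 were called in each of the 10 fits with 1 wt array left out, 27 under all 15 other settings that gave them a value, and 26 in every alternative run. The 642 calls (349 higher, 293 lower) ran from 291 to 711 with 1 array left out (140 to 435 higher, 139 to 276 lower). They were 422 (215 higher) with the 10 wt arrays alone, 243 (119 higher, 124 lower) with the actin 3' to 5' difference as a covariate, and 203 (113 higher, 90 lower) with the adipocyte mean. Arrays of code 1-3 alone gave 214 higher. The adipocyte, slow fibre and Gapdh covariates were chosen after seeing the data, as were all alternatives for the C3KO contrast and the code covariate for the difference.

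The 137 calls in C3KO became 18 with the code as a covariate, 13 with code 1-3 alone and 30 with the adipocyte mean (116 to 152 with 1 wt array left out). The 45 called differences became 18 with the code as a covariate, 13 with code 1-3 alone, 70 after quantile normalization, 8 with the slow fibre mean and 71 with the Gapdh 3' to 5' difference, and ran from 10 to 68 with 1 wt array left out. Signs turned for 6 of 121 named genes. With the most variable probe set Cacna2d1 gave −0.63, Ryr1 −0.26 and Ttn −0.74. With the adipocyte mean Adipoq gave −0.18 and Cidec −0.20. Cd74, not called (0.06), gave −0.040 with code 1-3 alone and −0.042 to 0.15 with 1 wt array left out, below 0 without M2-2, F4-2 or W2-2. The cause of each of these changes was not tested. No paired analysis was possible because young and adult mice are different animals and their numbers name no shared litter. Genes near the array median are limited by signal over background, so small changes there may be missed.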

Other observations

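Lists outside those described held few called genes. Of 18 such lists, 4 had a call, where 5.39% of all genes were called. The spindle gene Tpx2 was 4.81, 5.51, 5.84 and 4.94 in young and 6.25 to 6.93 in adult muscle and rose by 1.21 (adjusted p = 0.00520), the single call among 13 genes of cell cycle and DNA replication. Complement factor Cfb rose by 0.50 (adjusted p = 0.0418), the single call among 11 complement genes. Mt1 and Foxo1, described above, were the calls among 21 genes of atrophy and autophagy, and Ryr1 was the call among 12 muscle identity markers. By limma none passed of 21 genes of the unfolded protein response (4 at an unadjusted p under 0.05), 20 genes of the neuromuscular junction and denervation (4), 15 of the imprinted growth network (2) or 11 matrix proteases and inhibitors (3). Among markers of other cells, none passed of 4 brown adipocyte (3), 8 smooth muscle and pericyte (0), 4 T and NK cell (1), 5 MHC class II (0), 4 neutrophil (1), 2 erythroid (0), 8 Schwann and nerve (1) or 5 liver genes (0).

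Hddc3 separated mice in a way that age alone did not describe. It was 5.36, 5.88, 5.37 and 5.45 in the young wt mice and 8.09 to 8.34 in all 6 adult wt mice (2.69, SE 0.46, adjusted p = 0.00152). In C3KO quadriceps both ages held both levels: the 4 young mice were at 7.59, 5.49, 7.75 and 5.48, and the 7 adults ran from 5.42 to 7.83 with 4 of them under 6. Its C3KO change was −0.06 (SE 0.44), and the difference between the genotypes was 2.76 (adjusted p = 0.0551). The prefix of the mice cannot be told apart from age in the wt animals.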
